A study of Saccharomyces cerevisiae with 28 samples.

Results

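The genes described here encode the subunits of the 3 nuclear RNA polymerases of budding yeast (Saccharomyces cerevisiae). They were chosen by standard name from what each enzyme is known to contain, and all 31 were found by systematic name among the 6692 gene identifiers of the deposited files. By enzyme, 7 belong to RNA polymerase I (Pol I), 10 to RNA polymerase III (Pol III) and 7 to RNA polymerase II (Pol II), 2 are shared by Pol I and Pol III, and 5 are shared by all 3 enzymes.

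RNA was sequenced from steady-state cultures of strain YL390 at 0.2% glucose, and of strain YL388 at 0.0125, 0.02, 0.025, 0.05, 0.075, 0.1, 0.15, 0.2 and 0.4% glucose, with 1 library for each. All cultures were grown in synthetic minimal medium, first in 0.2% glucose and then for 2 h in fresh medium at the stated concentration. The labels give both strains by number only, with no genotype, and each culture is therefore described here by strain and glucose. The other 18 of the 28 samples of the series, all transient stress experiments, were not analysed here. In each library 6111 to 6158 genes had FPKM above 0. The width of the deposited confidence bounds implied 5.92e6 to 9.21e6 fragments per library (6.36e6 at 0.0125% glucose). The implied fragments behind a single subunit transcript lay between 179, for RPC17, and 3721, for RPA190, in any of the 10 libraries.

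Pol I transcribes the large ribosomal RNA precursor in the nucleolus, Pol III makes transfer RNAs, 5S ribosomal RNA and other small RNAs, and Pol II makes messenger RNA. Each enzyme is built on a pair of large catalytic subunits, a pair of subunits related to bacterial alpha, and a set of small subunits common to all of them. A stalk, and, on Pol I and Pol III, subunits related to the Pol II initiation factors TFIIF and TFIIE, complete the complexes. Synthesis of ribosomes and transfer RNAs takes up much of the transcription of a growing yeast cell, and its genes are known to be turned down when nutrients run short. Many genes for ribosome synthesis, and for Pol I and Pol III subunits in particular, carry the PAC element, whose name stands for polymerases A and C, the older names of Pol I and Pol III. The PAC element is bound by the related repressors Dot6 and Tod6, and it is often found beside the RRPE element, which is bound by Stb3.

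Values are FPKM, the number of fragments per kilobase of gene, scaled to the mapped fragments of the library. Each gene's log2(FPKM + 1) was fitted as a straight line against log2 glucose over the 9 YL388 libraries. The change given for a gene is its fitted level at 0.0125% minus that at 0.4% glucose, on that log2 scale, so that a negative change is a lower level towards low glucose. Adding 1 FPKM understates the change of low transcripts. "Fell" and "rose" are used of a gene whose slope had a Benjamini-Hochberg adjusted p under 0.05 over all 6121 genes tested with limma. With 1 culture at each concentration, the p-values measure only the scatter of these 9 libraries around a line. FPKM is a share of the RNA in a library, so a lower share and less RNA per cell cannot be told apart.

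Towards low glucose, transcripts of the subunits of Pol I and Pol III fell and those of Pol II moved little. Of the 31 subunit transcripts, 25 fell, 2 rose and 4 were not called, where 47.3% of all genes tested were called, 15.7% falling and 31.6% rising. All 7 Pol I subunits fell, with a median change of -0.86 (range -0.98 to -0.61), as did both subunits shared by Pol I and Pol III (-0.84 and -0.66). Among the 10 Pol III subunits 9 fell and 1 was not called (median -0.53, range -0.72 to -0.18). The 5 subunits common to all enzymes fell (median -0.48, range -0.65 to -0.35). Of the 7 Pol II subunits, 2 fell, 2 rose and 3 were not called (median -0.17, range -0.22 to 0.28). This split depended on the scaling of the values, with 5 falling and 0 rising under median-of-ratios scaling and under quantile normalization. Of the 6121 genes tested, 1400 fell and 1406 rose under median-of-ratios scaling, and 1736 fell and 1213 rose under quantile normalization. Without the 0.0125% library 18 members fell and 0 rose. Those that fell were 6 of Pol I, 6 of Pol III, 1 of Pol II, 4 of the common subunits and RPC40. Of the 6114 genes tested without that library, 671 fell and 1502 rose. The Pol I, Pol III and Pol II medians were then -0.57, -0.35 and -0.034.

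The median change over all genes tested was 0.12 for the values as deposited, -0.00091 under median-of-ratios scaling and -0.08 under quantile normalization. Relative to that median, the Pol I median stood at -0.98, -0.98 and -0.92 in the same order. The Pol III median stood at -0.65, -0.65 and -0.64 relative to all genes, the median of the common subunits at -0.60, -0.60 and -0.63, and that of Pol II at -0.29, -0.29 and -0.25. The medians of the 4 classes with more than 2 genes kept their order under all 3 scalings. Of the 31 transcripts, 29 had a change below the median of all genes, RPB4 and RPB11 being the exceptions.

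**Figure D1:**
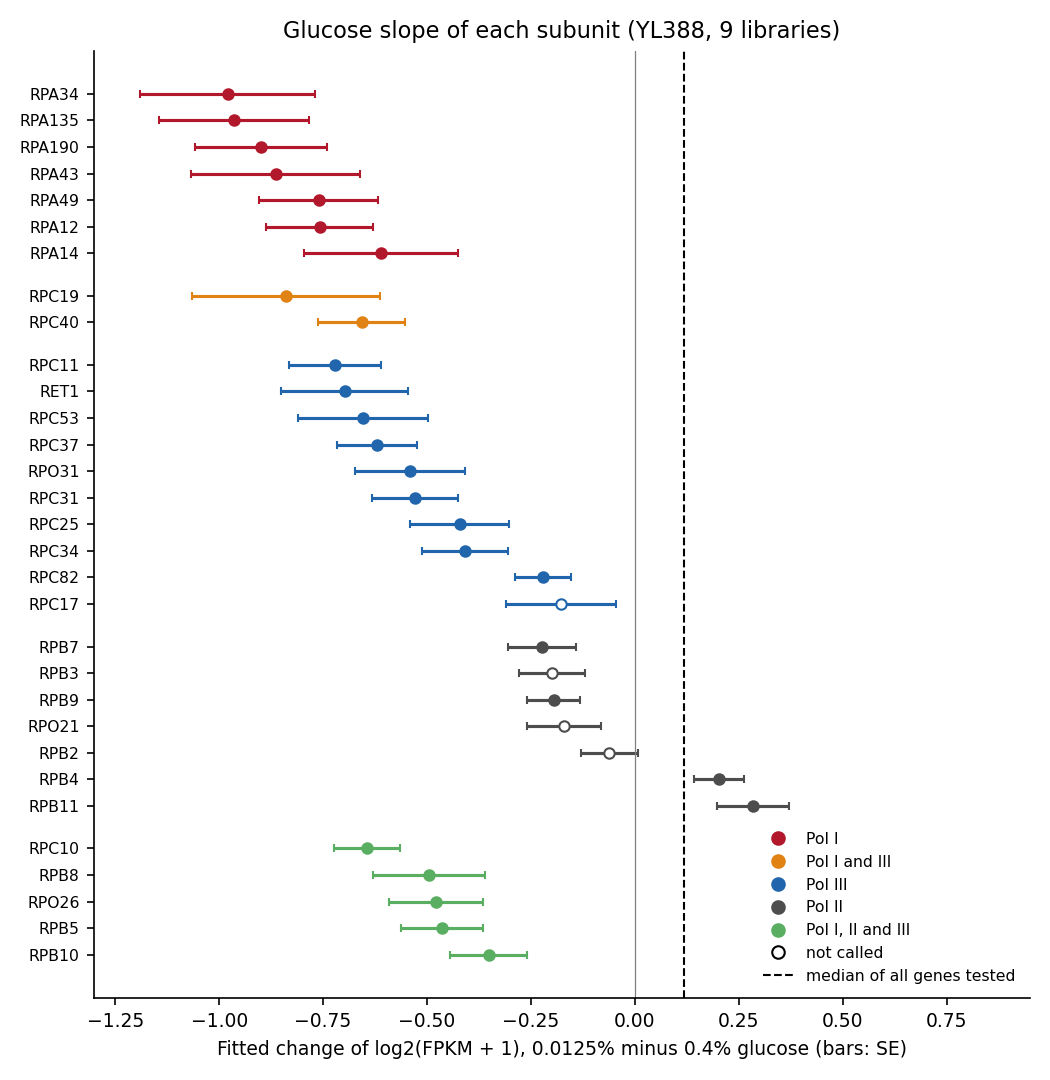
Fitted change of each subunit transcript, 0.0125% minus 0.4% glucose, as log2(FPKM + 1) with its standard error over the 9 YL388 libraries. Filled points were called, open points were not, and the dashed line is the median of all genes tested (0.12). All Pol I points lie between -0.98 and -0.61, whereas the Pol II points lie between -0.22 and 0.28. RPB4 and RPB11, the 2 points to the right of the dashed line, changed to -0.07 and -0.0086 under quantile normalization. The median of all genes was then -0.08, and they stood at 0.0092 and 0.067 relative to it.

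The largest subunits form, with the second largest, the active centre of each enzyme. RPA190 (YOR341W, chromosome XV, 960987 to 965981, plus strand, sacCer3), the largest subunit of Pol I, had 24.5, 33.3, 39.5, 42.4, 45.7, 48.5, 46.6, 49.3 and 52.2 FPKM from 0.0125% to 0.4% glucose. The 3 lowest concentrations gave the 3 lowest values, and at 0.0125% the transcript stood at 47.0% of its 0.4% level (change -0.90 ± 0.16, SE, adjusted p = 0.00186). RPO31 (YOR116C, chromosome XV, 539763 to 544145, minus strand), the largest subunit of Pol III, had 17.8, 24.1, 25.4, 26.2, 28.2, 29.1, 27.4, 28.4 and 29.8 FPKM in the same order. Its 0.0125% value stood apart from the others at 59.7% of the 0.4% value (change -0.54 ± 0.13, adjusted p = 0.00881), and without that library the change was -0.31 (adjusted p = 0.0161). RPO21 (YDL140C, chromosome IV, 205360 to 210561, minus strand), which encodes the largest subunit of Pol II with its heptad-repeat tail, had 30.5, 35.7, 37.4, 35.5, 37.7, 37.7, 38.2, 36.6 and 36.7 FPKM. Only the 0.0125% library lay below 35 FPKM, and the slope was not called (change -0.17 ± 0.09, 95% interval -0.38 to 0.04, adjusted p = 0.147). RPO21 was called as falling under median-of-ratios scaling (-0.29, adjusted p = 0.0294) and quantile normalization (-0.32, adjusted p = 0.0146).

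The second largest subunits followed the same order. RPA135 of Pol I (YPR010C, chromosome XVI, 577585 to 581196, minus strand) had 50.2, 71.5, 78.6, 94.2, 97.1, 108, 104, 100.2 and 110.3 FPKM from 0.0125% to 0.4% glucose. Every value at 0.025% and below was under every value at 0.05% and above, and the change was -0.96 ± 0.18 (adjusted p = 0.00245). RET1 of Pol III (YOR207C, chromosome XV, 730008 to 733457, minus strand) had 21.8, 30.4, 33.2, 36.1, 34.8, 38.7, 40.8, 39.3 and 39.7 FPKM, again with the 3 lowest values at the 3 lowest concentrations (change -0.70 ± 0.15, adjusted p = 0.00518; -0.43 without the 0.0125% library). RPB2 of Pol II (YOR151C, chromosome XV, 612997 to 616671, minus strand) had 55.8, 58.4, 58.8, 61.8, 60.9, 60.05, 60.6, 55.4 and 61.4 FPKM. Its lowest value was that at 0.2% glucose, and its change of -0.06 ± 0.07 was not called (95% interval -0.22 to 0.10, adjusted p = 0.494); under median-of-ratios scaling it was called at -0.18 (adjusted p = 0.0323) and under quantile normalization at -0.21 (adjusted p = 0.0139).

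The alpha-like subunits pair as a platform on which the large subunits assemble. RPC40 and RPC19 serve in Pol I and Pol III, and RPB3 and RPB11 in Pol II. RPC19 (YNL113W, chromosome XIV, 412771 to 413199) had 202, 268, 328, 378, 374, 416, 402, 443 and 358 FPKM from 0.0125% to 0.4% glucose, highest at 0.2% (change -0.84 ± 0.23, adjusted p = 0.014). It was not called without the 0.0125% library (-0.52, adjusted p = 0.0788). This gene overlaps YNL114C, and whether fragments were counted by strand is not stated. RPC40 (YPR110C, chromosome XVI, 745828 to 746835) had 212, 249, 267, 315, 304, 333, 313, 334 and 352 FPKM, with the 3 lowest values at the 3 lowest concentrations and the highest at 0.4% (change -0.66 ± 0.10, adjusted p = 0.00119). RPB11 (YOL005C, chromosome XV, 315813 to 316175) had 605, 563, 566, 507, 548, 494, 563, 510.0 and 464 FPKM, highest at 0.0125% and lowest at 0.4%. It rose with a change of 0.28 ± 0.09 (adjusted p = 0.0228) in the values as deposited. It was not called under median-of-ratios scaling (0.16, adjusted p = 0.189), and its sign turned under quantile normalization (-0.0086, adjusted p = 0.931). Relative to the median of all genes RPB11 stood at 0.17, 0.16 and 0.07 in the same order. RPB3, which overlaps YIL021C-A and YIL020C-A, ranged from 169.8 to 208 FPKM and was not called (-0.20 ± 0.08, adjusted p = 0.0661); it was called at -0.32 (adjusted p = 0.0106) and -0.37 (adjusted p = 0.00637) under the same 2 scalings.

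The stalk, formed by RPA43 and RPA14 in Pol I, RPC25 and RPC17 in Pol III and RPB7 and RPB4 in Pol II, takes part in initiation. RPA43 had 74.7, 112, 125.5, 145, 144, 158, 144, 159.8 and 156 FPKM and fell with a change of -0.86 ± 0.20 (adjusted p = 0.00726; -0.51 without the 0.0125% library). RPA14 (YDR156W, chromosome IV, 769525 to 769938), which overlaps YDR157W, had 205, 284, 308, 326, 358, 316, 399.5, 349 and 336 FPKM. It had the smallest change among the Pol I subunits (-0.61 ± 0.19, adjusted p = 0.0229). Of the Pol III stalk, RPC25 fell (-0.42 ± 0.12, adjusted p = 0.0167). Neither was called without the 0.0125% library (RPA14 -0.32, adjusted p = 0.117; RPC25 -0.30, adjusted p = 0.101). RPC17 (YJL011C, chromosome X, 414285 to 414770) was not called, with 92.7, 107, 110.5, 114, 118, 115, 116, 129 and 99.8 FPKM (-0.18 ± 0.13, 95% interval -0.49 to 0.13, adjusted p = 0.3). Its lowest values lay at both ends of the glucose range, and it was called as falling once the 0.4% library was left out (-0.42, adjusted p = 0.00619).

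The subunits of the Pol II stalk moved in opposite directions. RPB4 (YJL140W, chromosome X, 150961 to 151626), which in yeast can leave the Pol II core together with RPB7, had 420.0, 392, 392, 375, 394, 374, 388, 361 and 349 FPKM. It was highest at 0.0125% and lowest at 0.4%, and it rose in the values as deposited (0.20 ± 0.06, adjusted p = 0.0206). It was not called under median-of-ratios scaling (0.08, adjusted p = 0.332) and had the opposite sign under quantile normalization (-0.07, adjusted p = 0.401). Relative to the median of all genes RPB4 stood at 0.08, 0.08 and 0.0092 in the same order. RPB7 ranged from 208 FPKM at 0.0125% to 267 FPKM at 0.15% and fell (-0.22 ± 0.08, adjusted p = 0.0496), a call that was lost on leaving out any 1 of the other 8 libraries but kept without that at 0.4%, where the slope of RPB7 gave a change of -0.34. The difference between the slopes of RPB4 and RPB7 was not tested. The rises of RPB4 and RPB11 were also lost without the 0.0125% library (0.17 and 0.25, adjusted p = 0.0849 and 0.0962) and without that at 0.4% (0.17 and 0.23, adjusted p = 0.0841 and 0.105), and that of RPB4 without that at 0.2% (0.19, adjusted p = 0.05).

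RPA12, RPC11 and RPB9 belong to the subunits through which each enzyme cleaves a stalled transcript, in Pol II together with TFIIS. RPC11 (YDR045C, chromosome IV, 547978 to 548310), which also takes part in Pol III termination, had 306, 371, 350.3, 454, 442, 499.9, 466, 495 and 511 FPKM. Its 3 lowest values were at the 3 lowest concentrations, and it had the largest change among the Pol III subunits (-0.72 ± 0.11, adjusted p = 0.00105). RPA12 ranged from 307 FPKM at 0.0125% to 569.8 FPKM at 0.15% glucose (-0.76 ± 0.13, adjusted p = 0.00162). RPB9 ranged from 380.2 FPKM at 0.025% to 440.3 FPKM at 0.4% and changed by -0.20 ± 0.06 (adjusted p = 0.032). The RPB9 call was lost without any 1 of the libraries at 0.02, 0.025, 0.15, 0.2 and 0.4% (adjusted p between 0.0622 and 0.0912).

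The TFIIF-like heterodimers, RPA49 with RPA34 in Pol I and RPC37 with RPC53 in Pol III, all fell. RPA34 (YJL148W, chromosome X, 140437 to 141138) had 139.9, 186, 244, 258, 281, 316, 285, 294 and 302 FPKM from 0.0125% to 0.4% glucose. No other subunit changed more (-0.98 ± 0.21, adjusted p = 0.00477), and its 0.0125% value was 46.4% of that at 0.4%. RPA49 changed by -0.76 ± 0.14, RPC53 by -0.65 ± 0.16 and RPC37 by -0.62 ± 0.10 (adjusted p = 0.00249, 0.00795 and 0.00106). RPC53 overlaps YDL151C and changed by -0.43 without the 0.0125% library. In the TFIIE-like trimer of Pol III, which helps to open the promoter, RPC31 changed by -0.53 ± 0.10, RPC34 by -0.41 ± 0.10 and RPC82 by -0.22 ± 0.07 (adjusted p = 0.00311, 0.0101 and 0.0228). RPC82 ranged from 42.6 to 52.3 FPKM and stood at 83.8% of its 0.4% level at 0.0125% glucose. RPC34 overlaps YNR003W-A. RPC34 (-0.28, adjusted p = 0.0576) and RPC82 (-0.15, adjusted p = 0.122) were not called without the 0.0125% library.

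The median of the 5 common subunits lay between those of Pol II and Pol I, while RPC10 lay inside the Pol I range. RPC10 (YHR143W-A, chromosome VIII, 387233 to 387445), also known as RPB12, had 2475, 2907, 3026, 3191, 3242, 3478, 3762, 3975 and 3907 FPKM from 0.0125% to 0.4% glucose. From 0.0125% up to 0.2% each value was above the one before it, and the change was -0.65 ± 0.08 (adjusted p = 0.000374). RPB10 (YOR210W, chromosome XV, 738320 to 738532) had 2432, 2429, 2297, 2557, 2912, 2499, 2670, 2841 and 3085 FPKM, and its change was the smallest of the class (-0.35 ± 0.09, adjusted p = 0.0121). RPB8, RPO26 and RPB5 changed by -0.49 ± 0.14, -0.48 ± 0.11 and -0.46 ± 0.10 (adjusted p = 0.0148, 0.00744 and 0.00464). RPO26 changed by -0.28 without the 0.0125% library. RPB8 was not called without the 0.0125% library (-0.30, adjusted p = 0.0766), nor RPB10 without that at 0.4% (-0.30, adjusted p = 0.059). Levels are not compared between long and short genes. The deposited FPKM was 5.46 and 5.48 times the centre of its own confidence bounds for RPB10 and RPC10, each 213 bases long. It was equal to that centre for RPA190, RPO31 and RET1. This multiple also differed between genes of similar length, with 1.0 for RPC19 (429 bases) and 1.86 for RPB8 (441 bases).

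**Figure D2:**
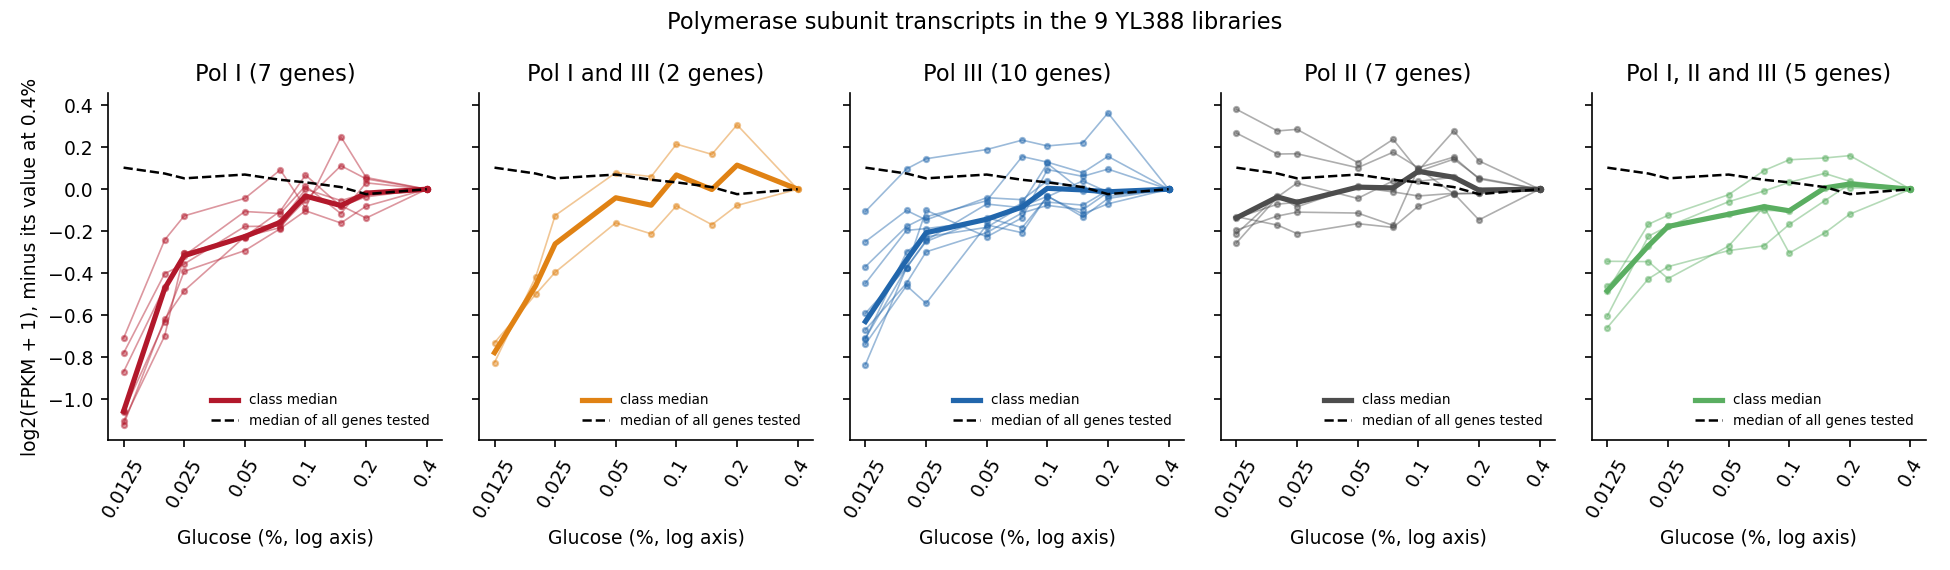
Level of each subunit transcript in each YL388 library, as log2(FPKM + 1) minus its value at 0.4% glucose, against glucose on a log axis; thin lines are genes, thick lines class medians, and the dashed line is the median of all genes tested. At 0.0125% glucose the medians lay at -1.06 for Pol I, -0.78 for the Pol I and III subunits, -0.63 for Pol III, -0.14 for Pol II and -0.48 for the common subunits, against 0.10 for all genes.

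Most of the fall lay below 0.05% glucose. The median Pol I transcript stood at -0.23 (log2) at 0.05% relative to 0.4%, and at -0.77 at 0.0125% relative to 0.05%. The same steps were -0.14 and -0.47 for Pol III, -0.12 and -0.40 for the common subunits, 0.01 and -0.08 for Pol II, and 0.07 and 0.03 for all genes. The last step alone, 0.0125% minus 0.02%, was -0.43 for Pol I, -0.24 for Pol III and -0.07 for Pol II. Of the 31 transcripts, 26 had their lowest value at 0.0125% glucose. The other 5 were RPB2, RPB4, RPB9 and RPB11 of Pol II and the common subunit RPB10. The share of all genes with their lowest value in that library is not given here.

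A square term in log2 glucose tested this bend. It was negative and called for 14 of the 31 transcripts and positive and called for 0, where 7.38% of all genes tested had a negative and 8.68% a positive call. All 7 Pol I transcripts were among the 14, with RPC19, with RPC37, RPC31, RPC25 and RPC17 of Pol III, and with the common subunits RPB5 and RPB8. None of the 7 Pol II transcripts was called, and 2 of them had an unadjusted p under 0.05. The count of 14 among the 31 transcripts became 3 without the 0.0125% library and 2 without that at 0.4%. It was 9, 5, 6 and 7 without those at 0.02, 0.05, 0.075 and 0.1%. How many of all genes were called in those fits is not given here. A loss of calls among the subunits therefore cannot be told from a general one.

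In 13 pairs of homologous subunits the log2 ratio of the pair, with 1 FPKM added to each subunit, was compared along glucose. This leaves out most of any scaling common to a library, though not exactly, because of the added 1. Ratios are printed without that addition, and changes of log2 are given with it. The ratios are not independent. Several share a subunit, and within a trio such as RPA190, RPO31 and RPO21 each ratio follows from the others. An exact two-sided permutation test over the 362880 orders of the 9 libraries was used, adjusted over the 13 pairs, and 12 ratios fell and 0 rose. The RPA190 to RPO21 ratio of FPKM was 0.803, 0.934, 1.06, 1.19, 1.21, 1.29, 1.22, 1.35 and 1.42 from 0.0125% to 0.4% glucose. It lay above 1 from 0.025% upward, and its log2 changed by -0.73 ± 0.10 (exact permutation p = 5.24e-05, adjusted p = 0.00034). The RPO31 to RPO21 ratio was 0.584, 0.674, 0.677, 0.737, 0.747, 0.773, 0.718, 0.777 and 0.814, a change of -0.37 ± 0.07 (exact permutation p = 0.000664, adjusted p = 0.00216). Between Pol I and Pol III, the RPA190 to RPO31 ratio was 1.38, 1.39, 1.56, 1.62, 1.62, 1.67, 1.70, 1.74 and 1.75, a change of -0.36 ± 0.05 (exact permutation p = 2.76e-06, the smallest these orders can give, adjusted p = 3.58e-05). It was higher at each concentration than at the one below it, and in all 3 pairs the 0.0125% library gave the lowest ratio.

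The second largest subunits gave the same order. RPA135 to RPB2 changed by -0.90 ± 0.17, RET1 to RPB2 by -0.64 ± 0.15 and RPA135 to RET1 by -0.27 ± 0.08 (exact permutation, adjusted p = 0.000442, 0.00383 and 0.017). Of the stalk, RPA43 fell against RPB7 (-0.64 ± 0.18, adjusted exact p = 0.00556) and against RPC25 (-0.44 ± 0.16, adjusted exact p = 0.017), whereas RPC25 against RPB7 did not pass the threshold (-0.20 ± 0.09, 95% interval -0.42 to 0.02, adjusted exact p = 0.0739). RPA12 and RPC11 fell against RPB9, with changes of -0.56 ± 0.17 and -0.53 ± 0.15 (adjusted exact p = 0.0055 and 0.0078). RPA12 of Pol I and RPC11 of Pol III were not tested against each other. They had similar changes (-0.76 and -0.72), with 307 and 306 FPKM at 0.0125% and 527 and 511 FPKM at 0.4% glucose. The alpha-like pairs changed by -0.46 ± 0.11 for RPC40 to RPB3 and by -1.12 ± 0.28 for RPC19 to RPB11 (adjusted exact p = 0.00556 and 0.00456). Without the 0.0125% library 9 ratios fell, RPA135 to RET1, RPA43 to RPC25 and RPC11 to RPB9 no longer passing (adjusted exact p = 0.0715, 0.118 and 0.0609). Of the ratios that still fell, RET1 to RPB2 then changed by -0.42, RPA43 to RPB7 by -0.37 and RPA12 to RPB9 by -0.31.

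**Figure D3:**
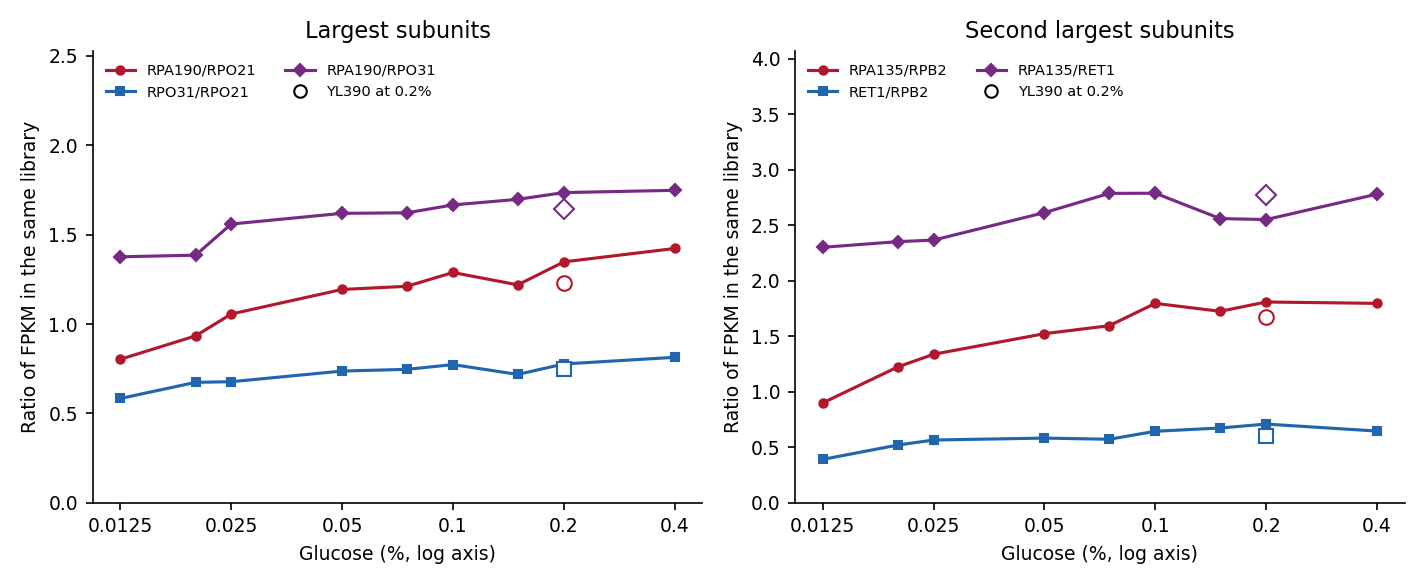
Ratio of FPKM between homologous subunits in the same YL388 library, for the largest and the second largest subunits, against glucose on a log axis; open symbols are YL390 at 0.2% glucose. The RPA190 to RPO21 ratio was 1.23 in YL390 at 0.2% glucose and 1.35 in YL388 at 0.2%, where it lay between 0.803 at 0.0125% and 1.42 at 0.4% glucose.

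The promoter windows of the subunit genes, from 250 bases before to 50 bases after the first base of the gene, were read from the R64 genome and searched on both strands. The PAC core, GATGAG, lay wholly before the start codon in 16 of the 31 windows (51.6%) and in 17.0% of the windows of 6001 genes. These 16 were 6 of 7 Pol I genes, both Pol I and III genes and 8 of 10 Pol III genes. Against these stood 0 of 7 Pol II genes and 0 of 5 common subunit genes. The element is named for Pol I and Pol III, in whose genes it was already known, so this split is not independent evidence. RPA12, RPC17 and RPC11 were the Pol I and Pol III genes without it. In RPB2 the core lay inside the coding sequence, 34 bases after the start. The longer form, GCGATGAG, which contains the core, occurred in 6 of the 31 windows (19.4%) and 3.93% of all windows.

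The RRPE core, AAAATTTT, occurred in 16 of the 31 windows (51.6%) and in 9.03% of all windows. The PAC core and the RRPE core occurred together in 12 of 31 windows (38.7%) and in 4.38% of all windows, and within 40 bases of each other in 9 of 31 (29.0%) and 3.13%. Those 9 comprised 5 Pol I genes, RPC40, and RET1, RPC34 and RPC25 of Pol III. The stress element AGGGG, bound in yeast by Msn2 and Msn4, occurred in 6 of 31 windows (19.4%) and 21.6% of all windows. A match is a match of letters and shows no binding.

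The 9 paired sites are shown because the PAC and RRPE cores stand side by side there. Each is written 5′ to 3′ on the strand of its gene with 12 bases on either side of the nearest pair of cores, in sacCer3 coordinates, and capitals mark the RRPE core (AAAATTTT) and the PAC core (GATGAG, or CTCATC where it lies on the other strand). They lie at chrXV:960782-960832 (plus strand) for RPA190, chrXVI:581288-581343 (minus) for RPA135, chrXIV:182721-182765 (minus) for RPA49, chrX:140304-140344 (plus) for RPA34, chrXV:960319-960376 (minus) for RPA43, chrXVI:746901-746954 (minus) for RPC40, chrXV:733558-733598 (minus) for RET1, chrXIV:635341-635404 (minus) for RPC34 and chrXI:176646-176687 (minus) for RPC25.
RPA190: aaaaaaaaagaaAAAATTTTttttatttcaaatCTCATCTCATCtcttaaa
RPA135: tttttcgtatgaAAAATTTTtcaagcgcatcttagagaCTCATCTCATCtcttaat
RPA49: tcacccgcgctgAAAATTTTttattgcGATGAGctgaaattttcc
RPA34: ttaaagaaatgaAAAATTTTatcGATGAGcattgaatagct
RPA43: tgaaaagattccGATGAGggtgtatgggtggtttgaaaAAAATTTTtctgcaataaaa
RPC40: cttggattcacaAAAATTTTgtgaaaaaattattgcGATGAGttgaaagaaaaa
RET1: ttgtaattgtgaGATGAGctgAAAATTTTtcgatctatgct
RPC34: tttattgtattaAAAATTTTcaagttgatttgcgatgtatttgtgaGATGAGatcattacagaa
RPC25: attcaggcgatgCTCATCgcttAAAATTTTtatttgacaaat

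In RPA190 and RPA135 a pair of overlapping PAC cores on the opposite strand shares the letters CTCATCTCATC, so that part of the second core stands within the 12 bases after the first. RPA190 and RPA43 are transcribed away from each other from neighbouring starts on chromosome XV, and their windows do not overlap. For contrast, RPC19 (chrXIV:412632-412661, plus strand) had a PAC core with no RRPE core, and RPO21 (chrIV:210624-210655, minus strand), the largest Pol II subunit, an RRPE core with no PAC core.
RPC19: atattcacctgcGATGAGctggaaaaaaaa
RPO21: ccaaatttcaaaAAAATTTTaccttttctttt

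The 16 subunit genes with the PAC core before the start codon all fell, with a median change of -0.66 (range -0.98 to -0.22). The other 15 had a median change of -0.22 (range -0.76 to 0.28), and 9 of them fell. Of all genes tested 15.7% fell, and the share among all genes with a PAC core is not given here. Without the 0.0125% library RPA14, RPC19, RPC82, RPC34 and RPC25, which have the core, were no longer called as falling. Nor were RPB8 and RPB7, which lack it. The motif and the class go together here, so what either adds beyond the other cannot be told apart. RPA12 and RPC11, without a PAC core in the window, changed by -0.76 and -0.72, and RPC82, with one, by -0.22.

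**Figure D4:**
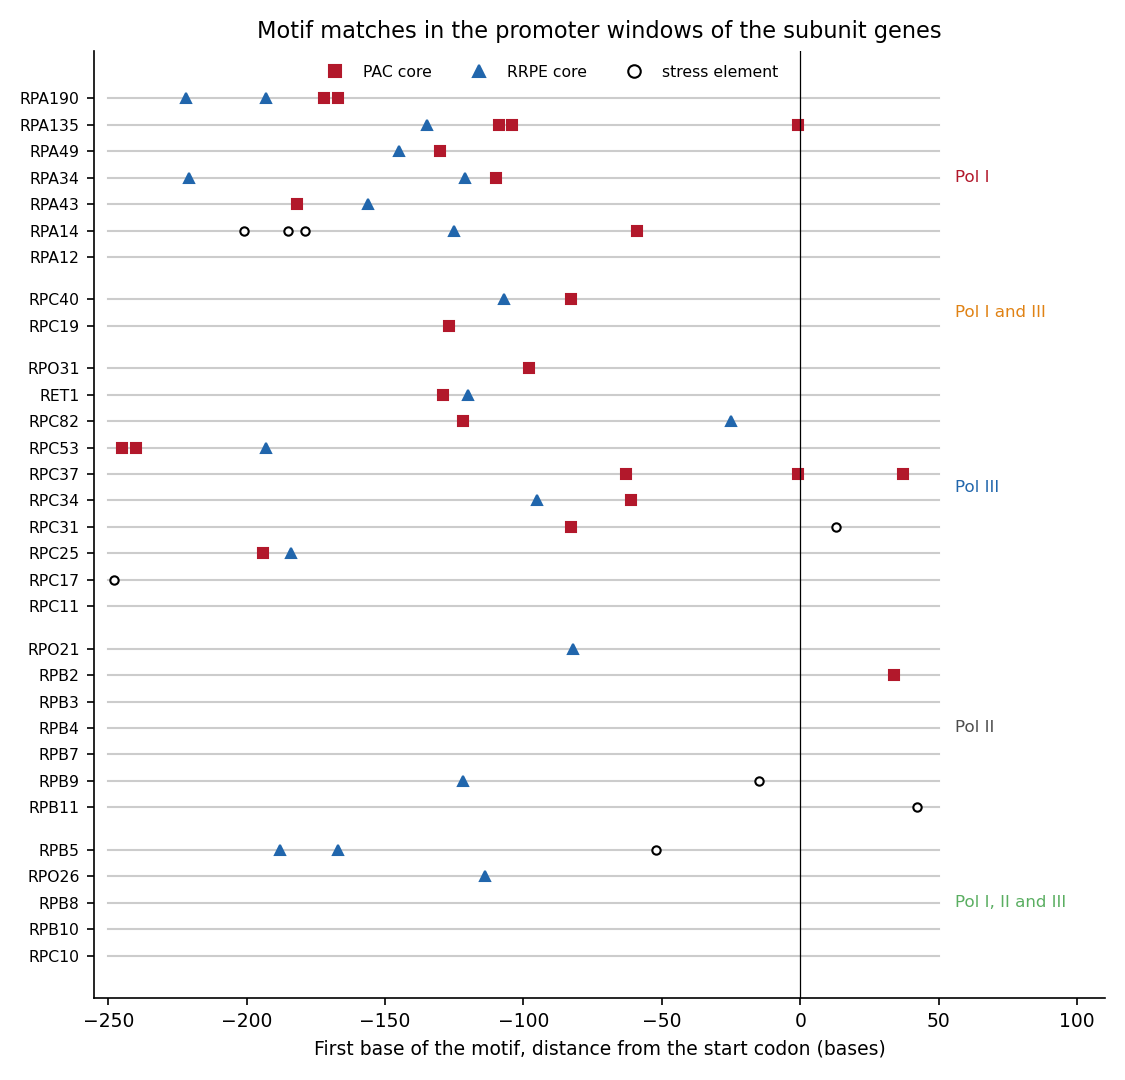
Motif matches in the promoter window of each of the 31 subunit genes; the x axis gives the first base of the match as its distance in bases from the start codon, on either strand. Red squares (PAC core) before the start codon occur in 16 rows, all of Pol I, Pol I and III or Pol III genes, and in 0 of the 12 rows of Pol II and common subunit genes.

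Genes that act with the polymerases were described from 6 lists. Without the 0.0125% library, 671 of the 6114 genes tested fell and 1502 rose. With all 9 YL388 libraries, 15.7% of all genes tested fell and 31.6% rose. All 23 genes of nucleolar ribosomal RNA processing fell (median -0.70), among them NSR1, the yeast nucleolin, and NOP7, of the large-subunit assembly pathway. NSR1, which overlaps another gene, had 187 FPKM at 0.0125% and 479 FPKM at 0.4% glucose (-1.19 ± 0.23, adjusted p = 0.00268), and NOP7 had 106 and 234 FPKM (-0.998 ± 0.15, adjusted p = 0.000914). Of 10 Pol I initiation and termination factors 5 fell, 1 rose and 4 were not called (median -0.26). RRN3, which brings Pol I to its promoter, had 32.2 FPKM at 0.0125% and 39.8 FPKM at 0.4% (-0.34 ± 0.09, adjusted p = 0.0158). RRN7 and RRN11, of the core factor, changed by -0.48 ± 0.10 and -0.56 ± 0.12 (adjusted p = 0.00339 and 0.00459). The rise, of UAF30, was lost under both median-of-ratios scaling and quantile normalization (adjusted p = 0.0761 and 0.108). Without the 0.0125% library 3 of these factors fell and 0 rose, and RRN3 was not called (adjusted p = 0.0669).

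Of 9 Pol III factors none fell in any scaling tried. In the values as deposited 4 rose (median 0.14), with 2 under median-of-ratios scaling and 1 under quantile normalization. Of the 6121 genes tested, 1937, 1406 and 1213 rose in the same order, with a median of 0.12 as deposited. MAF1, the repressor of Pol III, had 70.1 FPKM at 0.0125% and 50.6 FPKM at 0.4% glucose (0.46 ± 0.11, adjusted p = 0.00747) and rose under both scalings (adjusted p = 0.0216 and 0.0392). TFC3, of the factor TFIIIC that binds transfer RNA genes, changed by 0.47 ± 0.12 (adjusted p = 0.00897) and was not called under quantile normalization (adjusted p = 0.105). BRF1, of TFIIIB, had 38.5 FPKM at 0.0125% and 35.5 FPKM at 0.4% and was not called (adjusted p = 0.243). Of 22 Pol II general factors 3 fell, 2 rose and 17 were not called (median -0.00). SPT15, the TATA-binding protein used by all 3 enzymes, had 187 FPKM at 0.0125% and 249 FPKM at 0.4% (-0.28 ± 0.09, adjusted p = 0.0267), and it overlaps another gene. The rises of TOA2, of TFIIA, and SSL1, of TFIIH (0.34 ± 0.11 and 0.36 ± 0.12, adjusted p = 0.0328 and 0.0385), were lost under both scalings (adjusted p between 0.116 and 0.512). Under each of those scalings 9 general factors fell, where 1400 and 1736 of the 6121 genes tested fell. Without the 0.0125% library MAF1 alone rose among the Pol III factors (adjusted p = 0.0427), TFC3 was not called (adjusted p = 0.0564), and among the general factors 1 fell, SPT15 not being called (adjusted p = 0.132), and 0 rose.

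Of 8 genes for polymerase assembly and nuclear import 5 fell, 2 rose and 1 was not called (median -0.33), and the rises were lost under both scalings. RBA50, needed for polymerase assembly, had 31.9 FPKM at 0.0125% and 69.9 FPKM at 0.4% glucose (-0.94 ± 0.21, adjusted p = 0.00529), and it overlaps another gene. GPN3, a GTPase of polymerase assembly, changed by -0.47 ± 0.12 (adjusted p = 0.0098). Of 11 regulators of ribosome and polymerase genes 2 fell, 1 rose and 8 were not called (median -0.09). Under median-of-ratios scaling 4 fell and under quantile normalization 6, with 1 rising under each. Of the 6121 genes tested, 958 fell as deposited, and 1400 and 1736 under these scalings. The repressor genes tied to the elements above differed: TOD6 had 22.5 FPKM at 0.0125% and 56.7 FPKM at 0.4% (-1.11 ± 0.22, adjusted p = 0.00306), its relative DOT6 was not called (0.02 ± 0.09, adjusted p = 0.86, with -0.10 and -0.11 under the 2 scalings), and STB3 had 49.3 and 35.1 FPKM (0.54 ± 0.12, adjusted p = 0.00544). Products of Pol I and Pol III, such as ribosomal and transfer RNA, were not analysed here. Without the 0.0125% library 3 assembly and import genes fell and 0 rose, RBA50 changing by -0.60 and GPN3 by -0.29, and among the regulators TOD6 fell and STB3 rose.

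YL390 was compared with YL388 at 0.2% glucose, with 1 library each, and the differences at that concentration were not tested. None of the 31 subunit transcripts differed by 2-fold or more, where 2.85% of all genes did. Smaller differences exceeded 2 counting standard deviations, as implied by the deposited bounds, for 9 of the 31. Those deviations cover counting error only, and the share over all genes is not given here. The median of YL390 minus YL388 was -0.01 (log2), with a range of -0.32 to 0.15, and 12 of the 31 were higher in YL390, where 3715 of 6063 genes were. RPC53 lay at the low end, with 95.7 FPKM in YL390 and 119.7 FPKM in YL388, and RPB2 at the high end, with 61.4 FPKM in YL390 and 55.4 FPKM in YL388. The class medians were -0.04 for Pol I, -0.13 for the Pol I and III subunits, -0.09 for Pol III, 0.04 for Pol II and 0.05 for the common subunits, and 0.05 for all genes. Set against the YL388 libraries at 0.15 to 0.4% glucose, 14 YL390 values lay within their range, 8 above and 9 below. A limma fit of the distance of the YL390 library from the YL388 curve takes its spread from the YL388 libraries alone and assumes that the single YL390 library varies like them. It called 0 of the 31 transcripts, where 3.66% of all genes were called, and 3 of them (RPC53, RPC11 and RPB8) had an unadjusted p under 0.05; no other tool was run.

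**Figure D5:**
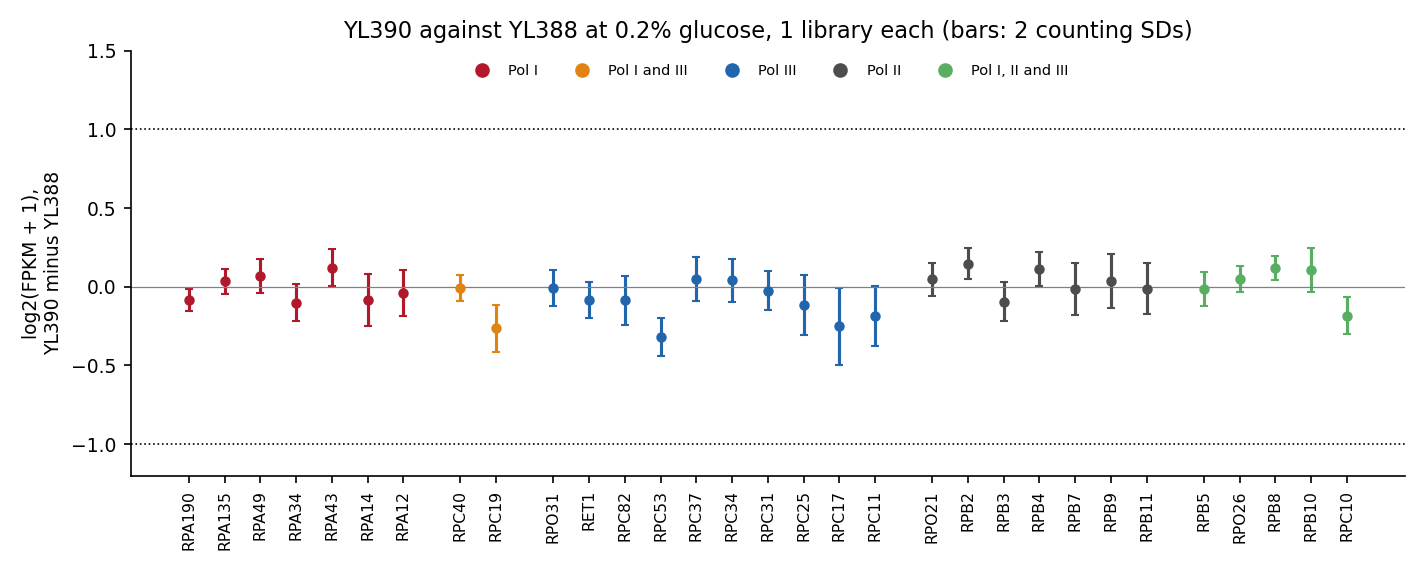
Difference of each subunit transcript between YL390 and YL388 at 0.2% glucose, as log2(FPKM + 1), with bars of 2 counting standard deviations implied by the deposited bounds; these cover counting error only. Dotted lines mark a 2-fold difference, and all 31 points lie between -0.32 and 0.15.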

How the data were processed

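RNA of 10 yeast cultures was profiled by RNA sequencing, with 1 library per strain and glucose concentration. The deposited values are FPKM with lower and upper confidence bounds for each gene, in the layout of Cufflinks gene tables per the file headers. Cufflinks, TopHat, DESeq2 and the build sacCer3 are named in the submitters' processing notes. Versions, settings, annotation, strand use and the part each tool played were not given in the sources used here. Fragment totals are not in these values, so depth was inferred from the bounds, taken to lie 2 Poisson standard deviations from their centre.

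Genes averaging 1 FPKM or more in the 9 YL388 libraries were tested on log2(FPKM + 1) with limma 3.58.1 (R 4.3.3), with an intensity trend, for a slope on log2 glucose, then with a square term; adjusted p-values are Benjamini-Hochberg over all genes. Intervals of 95% are not adjusted. Subunit ratios were tested by exact permutation. Promoters came from the R64 genome, in which all 31 genes had the coordinates of the files. The fits were checked on simulated data.

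The members, pairs, motifs and related lists were chosen with earlier results of these data known. Described in full are the largest and second largest subunits, those with the largest and smallest slope of each class, and those whose direction differed from their class; from each list, the 2 called genes with the largest change, with SPT15, RRN3, BRF1 and MAF1. PBF1 is a synonym of TOD6 and was counted once. UAF30, DOT6 and overlapping genes were named after their values were seen. Alternatives were other pseudocounts, filters, scalings and glucose scales, the centre of the bounds, and leaving out each library.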

Additional observations from a re-analysis of the deposited data

How the results depend on the processing

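The calls depended most on the glucose scale and on the 0.0125% library. On a scale of percent glucose, not its log, 0 members fell or rose in any class and 0 ratios fell, with medians of -0.60 for Pol I, -0.50 for the Pol I and III subunits, -0.39 for Pol III, -0.35 for the common subunits and -0.38 for all members; of all genes tested, 0 rose and 0 fell as well. Median-of-ratios scaling gave medians of -0.66 for Pol III, -0.29 for Pol II, -0.60 for the common subunits and -0.65 for all members, with 5 Pol II members falling and 0 rising, and 0 members rising in all. Quantile normalization gave -0.94 for the Pol I and III subunits, -0.72 for Pol III, -0.32 for Pol II, -0.70 for the common subunits and -0.75 for all members, with the same 5 and 0 for Pol II and 0 rising in all; RPB4 (-0.067) and RPB11 (-0.0086) changed sign. The cause of these shifts was not tested, beyond the shift in the median of all genes. Relative to that median RPB4 and RPB11 stood at 0.0092 and 0.067 under quantile normalization. Of the 6121 genes tested, 1400 fell and 1406 rose under median-of-ratios scaling, and 1736 fell and 1213 rose under quantile normalization. Without an intensity trend 1 Pol II member fell.

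Leaving out 1 YL388 library at a time, the members that fell numbered 18 to 25 and those that rose 0 to 2. The median of all members lay between -0.63 and -0.33. Of the 6114 to 6121 genes tested, 671 to 974 fell and 1502 to 1949 rose. The Pol I median lay between -1.04 and -0.57 (6 to 7 fell), the Pol I and III median between -0.97 and -0.52 (1 to 2 fell), the Pol III median between -0.63 and -0.35 (6 to 10 fell), the Pol II median between -0.19 and -0.034 (0 to 2 fell, 0 to 2 rose) and the median of the common subunits between -0.61 and -0.33 (4 to 5 fell). The square term was called for 2 to 13 members, with no count over all genes given here, and 9 to 13 ratios fell. Without the 0.0125% library RPA14, RPC19, RPC82, RPC34, RPC25, RPB8 and RPB7 were no longer called as falling, nor RPB4 and RPB11 as rising. Other pseudocounts, other filters, the centre of the bounds and ranked glucose changed no count of called members by over 1.5 times. Chosen after seeing the data, leaving out the 5 members that overlap another gene left 1 Pol I and III member, RPC40, which fell.

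No paired analysis was possible because each strain and glucose concentration has 1 library. The depth gave a counting standard deviation of at most 0.108 (log2) for a member in a library.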
